A study of Mus musculus with 1119 samples.

Results

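The 10 members of an immediate early and stress response, Fos, Fosb, Jun, Junb, Egr1, Atf3, Ier2, Dusp1, Zfp36 and Klf4, were followed through single cells of the mouse hair follicle. They were taken by name from 46517 gene rows, and each stood on 1 row of all 3 deposited expression tables. The 1119 cells came from back skin, were sorted into 96-well plates and were sequenced 1 cell per library with the Smart-seq2 chemistry, which reads whole transcripts. Values are TPM, the share of a library's transcripts after correction for gene length, and a gene counts as seen in a cell at 1 TPM or more.

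The cells fall in 6 types that the authors named. Mice of the genotype Lgr5-eGFPiresCreER;R26-tdTomato, of mixed sex, gave the P21 to P27 cells, which were sorted on GFP, tdTomato, the integrins α6 and b1, CD34 and Pcadherin, and whose GFP and Cre stand under Lgr5. They were 39 bulge stem cells and 71 hair germ cells of the resting follicle (telogen) at P21, 89 germ cells of the first growth stage (Ana1), 73 of them from P23 to P24 and the other 16 from P25 to P27. Matrix cells, the transit-amplifying progenitors, filled 3 plates with 55, 76 and 68 cells at P25 to P27. Lhx2-GFP (CD1) mice, also of mixed sex, gave matrix cells at P30 on 5 plates of 76, 78, 75, 74 and 81 cells, sorted on GFP, the integrins α6 and b1, CD34, Sca-1 and Pcadherin. Male K14-H2BGFP;LEF1-RFP mice gave dermal papilla cells at P30, the signalling fibroblasts at the base of the follicle, on 4 plates of 87, 87, 86 and 77 cells, sorted on GFP, RFP, integrinα9 and CD117. Animals are not named, so each group is 1 sample, no difference carries a test, and age, strain, sort and plate cannot be told apart where they change together. Plates, read from the sample titles, show a technical spread only.

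Immediate early genes are switched on within minutes of a stimulus from transcription factors that are already in the cell, with no new protein needed. Growth factors and stress act through MAP kinases on serum response factor with its partners and on CREB, which bind the CArG box and the cAMP response element (CRE) of these promoters. Fos and Jun family proteins pair to form the AP-1 factor, Egr1 and Klf4 are zinc finger factors and Atf3 is a stress-induced factor of the ATF family. Dusp1 removes phosphate from MAP kinases and Zfp36 directs AU-rich messages to decay, so both close the response. In skin such transcripts are known to appear during wounding and also during enzymatic dissociation.

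Promoter sequence was available for 8 of the members in the RefSeq table (GRCm38.p6), as the 250 bases before and 50 after the start of the gene. None was available there for Egr1 and Ier2. Both strands were searched for the CArG box (by its name), for the CRE TGACGTCA, for the AP-1 site TGANTCA, for the EGR sites GCGTGGGCG and GCGGGGGCG, and for TGACG, which is part of the CRE. The 5 promoters printed are those of AP-1 genes and of the genes that close the response that hold a match. Jun, also an AP-1 gene, held no match to any of these motifs. The lines give the last 150 bases before the start, 5′ to 3′ on the strand of the gene, with matches in capitals (TGACG or the whole CRE, the EGR site, the CArG box).
Fos, chr12:85473740-85473889, plus strand: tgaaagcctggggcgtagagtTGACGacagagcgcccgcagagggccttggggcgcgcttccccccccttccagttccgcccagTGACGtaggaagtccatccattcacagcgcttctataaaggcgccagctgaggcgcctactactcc
Fosb, chr7:19310046-19310195, minus strand: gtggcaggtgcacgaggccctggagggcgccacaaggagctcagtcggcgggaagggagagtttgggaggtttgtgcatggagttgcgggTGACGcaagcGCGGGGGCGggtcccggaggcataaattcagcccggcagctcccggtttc
Junb, chr8:84978749-84978898, minus strand: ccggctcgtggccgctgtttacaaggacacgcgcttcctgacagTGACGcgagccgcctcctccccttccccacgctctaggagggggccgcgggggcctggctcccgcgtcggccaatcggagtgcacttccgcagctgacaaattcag
Dusp1, chr17:26508473-26508622, minus strand: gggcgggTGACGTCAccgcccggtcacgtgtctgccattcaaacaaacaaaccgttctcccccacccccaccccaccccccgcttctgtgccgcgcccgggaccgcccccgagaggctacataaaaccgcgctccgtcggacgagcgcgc
Zfp36, chr7:28379229-28379378, minus strand: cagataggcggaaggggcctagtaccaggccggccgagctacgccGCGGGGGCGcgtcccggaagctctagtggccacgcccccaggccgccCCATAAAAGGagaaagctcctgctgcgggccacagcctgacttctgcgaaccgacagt

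In these windows TGACG stood in 6 of the 8 members (Fos, Fosb, Junb, Atf3, Dusp1 and Klf4), against 21% of the 27025 promoters of the table. TGACG was chosen after the values were seen, so this contrast is a description only. An EGR site stood in Fosb, Zfp36 and Klf4, against 3.49% of all promoters. The full CRE was found in Dusp1 alone of the 8 and the CArG box in Zfp36 alone, against 1.88% and 1.57%. The AP-1 site was in none of the 8 and in 7.93% of all promoters. The matches describe letters in a window, and no binding was measured. Sites outside the window were not searched, so a promoter without a match may hold the element elsewhere.

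The libraries differed before any gene was compared. Over the 16 plates of 10 or more cells, the median number of genes seen per cell ran from 5160 to 8037, and the median share of TPM in spike-ins from 0.64% to 14.4%, in ribosomal RNA from 52.98% to 75.3% and in mitochondrial rows from 1.62% to 3.05%. Markers of the named types were looked up in each type. Krt14 was seen in 85.4% to 100% of the cells of the 4 types of P21 to P27, but in 51.8% of P30 matrix cells. The 6 bulge markers were seen in 92.3% to 100% of bulge cells and in 40.8% to 97.2% of P21 germ cells. The 3 germ markers were seen in 80.3% to 92.96% of P21 germ cells and in 30.8% to 92.3% of bulge cells, and Lgr5 is on both lists. The 8 dermal papilla markers were seen in 7.72% to 90.2% of papilla cells, with Sox18 (7.72%) and Sox2 (18.1%) the lowest. Corin, a dermal papilla protease, was seen in 82.8% of papilla cells and in none of the P21 to P27 cells. Msx2, a matrix marker, was seen in 83.1% of P30 matrix cells. The 5 matrix markers were low in the P25 to P27 matrix, in 6.53% to 43.7% of cells, and Msx2 was seen in 23.6% there against 33.3% of bulge cells, with Krt15, a bulge keratin, in 90.95%. In the P30 matrix table all 4 melanocyte markers were seen, in 41.9% to 74.7% of cells, and the 4 smooth muscle and pericyte markers in 6.77% to 25.8%. Immune markers (5 in all) were seen in at most 13.4% of the cells of any type. No 2 cells had identical values, and 5 papilla cells held no TPM outside spike-in, ribosomal and mitochondrial rows.

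The AP-1 genes of the Fos family were highest in the hair germ and lowest in the dermal papilla, and they differed in the bulge, where Fos was low. Fos was seen in 28.2% of bulge cells (exact binomial interval at 95%, 15% to 44.9%), 61.97% of P21 germ cells (49.7% to 73.2%), 66.3% of Ana1 germ cells, 41.7% of P25 to P27 matrix cells, 44.8% of P30 matrix cells and 13.6% of papilla cells. These intervals cover the counting of cells only. Mean TPM of Fos in the same order was 20.8, 191.9, 111.4, 73.02, 68.4 and 18.8, of which the bulge value rests on 1 cell of 499.4 TPM (8.19 without it). The median cell stood at 0 in all but the 2 germ types. By mean log2(TPM + 1) the order was P21 germ (4.06), Ana1 germ (3.92), P25 to P27 matrix (2.58), P30 matrix (2.45), bulge (1.29) and papilla (0.69), and the plate means of the first 4 overlapped from one neighbour to the next. By mean log2(TPM + 1) Fosb had another order: Ana1 germ (2.23), P21 germ (2.21), bulge (1.61), P25 to P27 matrix (1.26), P30 matrix (0.58) and papilla (0.18). Fosb was seen in 57.3% of Ana1 germ cells and 5.64% of papilla cells.

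Jun and Junb, the partners of Fos, were seen more widely and parted from each other. Jun was highest in the bulge (mean log2 4.92, seen in 84.6% of cells), then P21 germ (4.51), Ana1 germ (4.38), P25 to P27 matrix (3.84), P30 matrix (3.14) and papilla (0.65, 15.4%). The plate means of P25 to P27 and P30 matrix cells overlapped. Bulge and P21 germ were 1 plate each, so between them no overlap was possible. The Ana1 germ plates (4.39 and 4.42) lay close below P21 germ and barely above the highest P25 to P27 matrix plate (4.38). All papilla plates lay below all P30 matrix plates. Junb was close to equal in P21 germ (4.67), P30 matrix (4.63) and Ana1 germ (4.61), with overlapping plates. It was lower in P25 to P27 matrix (3.62), bulge (2.98) and papilla (1.94). In the P30 matrix Junb was seen in 90.6% of cells and its mean TPM on the plates was 40.95, 46.6, 44.2, 55.9 and 78.1, whereas Fosb was seen in 14.8% of the same cells.

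Egr1 and Atf3, both induced by growth factors or stress, had the same top and bottom as Fosb. Egr1 ran from 3.97 in Ana1 germ to 3.25 in P30 matrix, with overlapping plate means between each pair of neighbours down to that level, and was at 0.70 in papilla. Its mean TPM was 49.3 in bulge, 98.3 in P21 germ, 82.7 in Ana1 germ, 52.9 and 45.1 in the 2 matrix types and 10.7 in papilla. Atf3 was the rarest in papilla, where it was seen in 2.08% of cells. It was seen in 33.3%, 38.03% and 38.2% of bulge, P21 germ and Ana1 germ cells and in 20.6% and 21.9% of the 2 matrix types.

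Ier2, Dusp1 and Zfp36 spanned a smaller range or another order. Ier2, a nuclear regulator of early transcription, was seen in 63.5% to 88.02% of cells of every type, from a mean log2 of 4.62 in P21 germ to 3.01 in papilla. Zfp36 was seen in 54.3% to 66.7% of cells of every type, and its means spanned 1.32 on the log2 scale, the smallest range of the 10. Dusp1 was highest in the bulge (3.78), P21 germ (3.51) and papilla (2.45) and lowest in P30 matrix (1.15), where it was seen in 23.96% of cells. In P21 germ cells mean and share gave Dusp1 different places: its mean TPM of 210 was the highest of the 6 types, though it was seen in 46.5% of cells against 61.5% in the bulge. A single P21 germ cell held 5906 TPM of Dusp1, and without it the mean was 128.7. That cell was also the highest P21 germ cell for Fosb, Jun, Egr1 and Zfp36.

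Klf4, a factor of keratinocyte differentiation that also responds early to stimuli, had an order of its own. It was seen in 39 of 39 bulge cells (100%, lower limit of the exact interval 90.97%) and in 85.2% of papilla cells, but in 17.7% of P30 matrix cells. Mean TPM was 33.9 in bulge, 16.9 in P21 germ, 15.6 in Ana1 germ, 16.1 in P25 to P27 matrix, 2.2 in P30 matrix and 28.3 in papilla. Every papilla plate (22.5, 36.5, 27.5 and 26.7 TPM) lay above every P30 matrix plate (1.85, 0.775, 1.84, 3.25 and 3.28 TPM), in 2 tables that differ in strain, sort and cell type. Klf4 was therefore the member with the highest mean log2 in papilla (3.81), where Fos, Jun and Egr1 were each seen in 13.6% to 15.4% of cells.

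Over the 6 types the members' means spanned a median of 2.68 on the log2 scale, against 1.27 for the 11176 genes that passed 30% of cells in some type. Over the 4 types of P21 to P27 alone the medians were 1.18 and 0.74. Other lists were low in papilla as well. The 8 reference genes (Actb, Gapdh and the like) had a median of 6.30 in papilla against 8.13 to 9.29 elsewhere, and the 12 heat shock genes 2.80 against 4.49 to 4.91. The papilla also held 33 of the 49 cells with fewer than 2000 genes seen, and its cells came from a strain and sort of their own. The part of these differences in the low Fos, Jun and Egr1 of papilla was not tested.

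**Figure D1:**
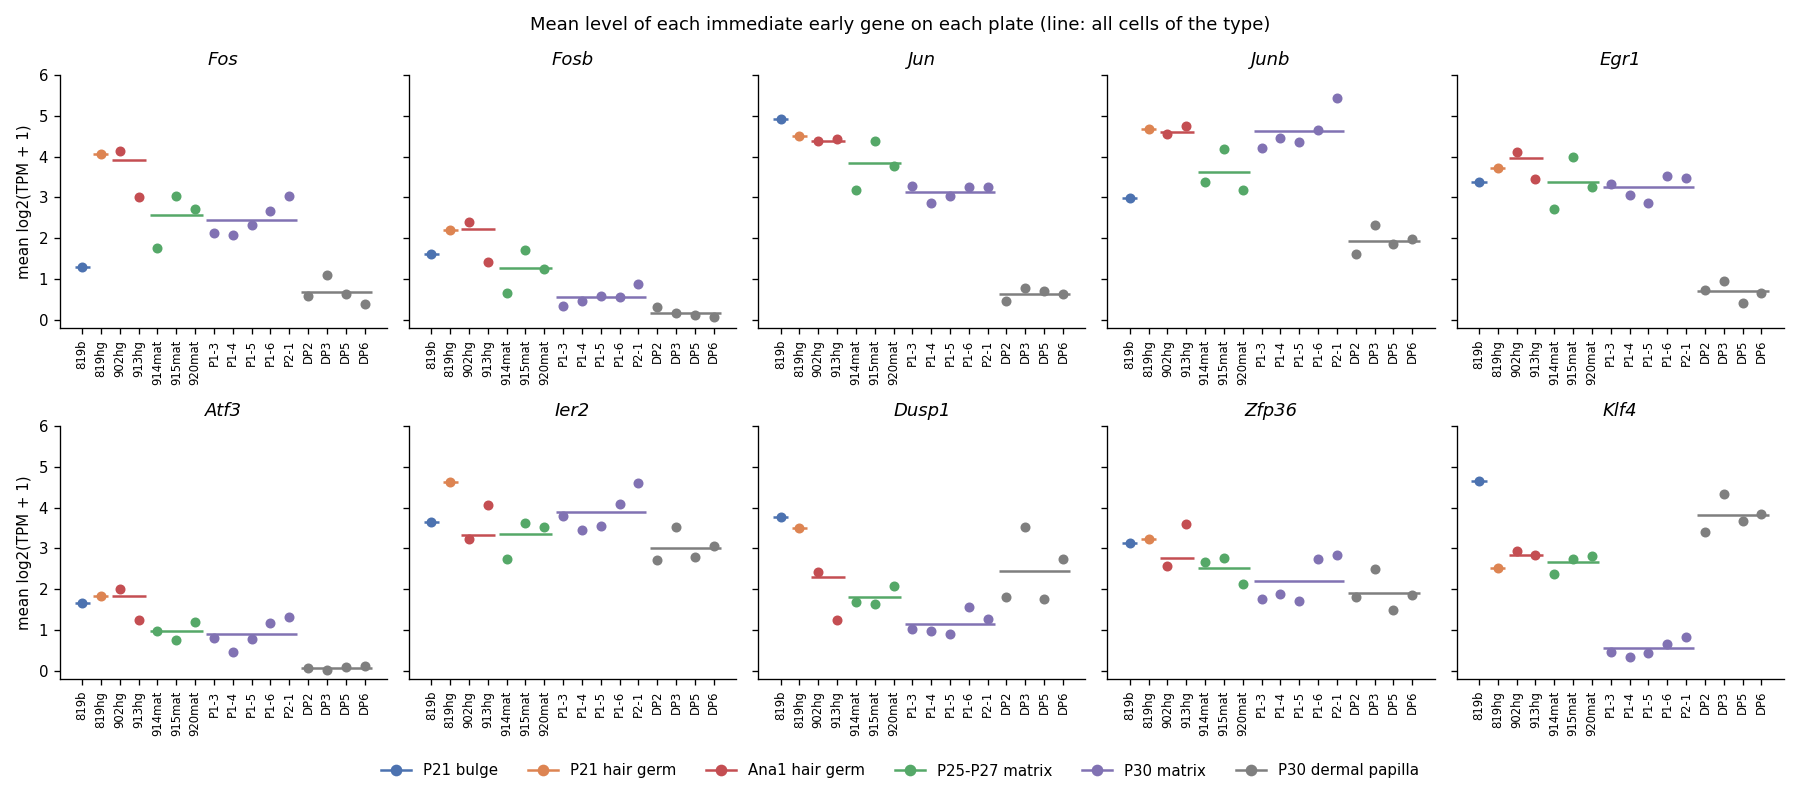
Mean log2(TPM + 1) of each member on each plate of 10 or more cells (points; plate names as in the sample titles on the x axis), with the mean over all cells of the type as a line. Papilla plates lie lowest for Fos, Jun, Egr1 and Atf3 but near the top for Klf4, where the P30 matrix plates lie lowest (type mean 0.56).

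**Figure D2:**
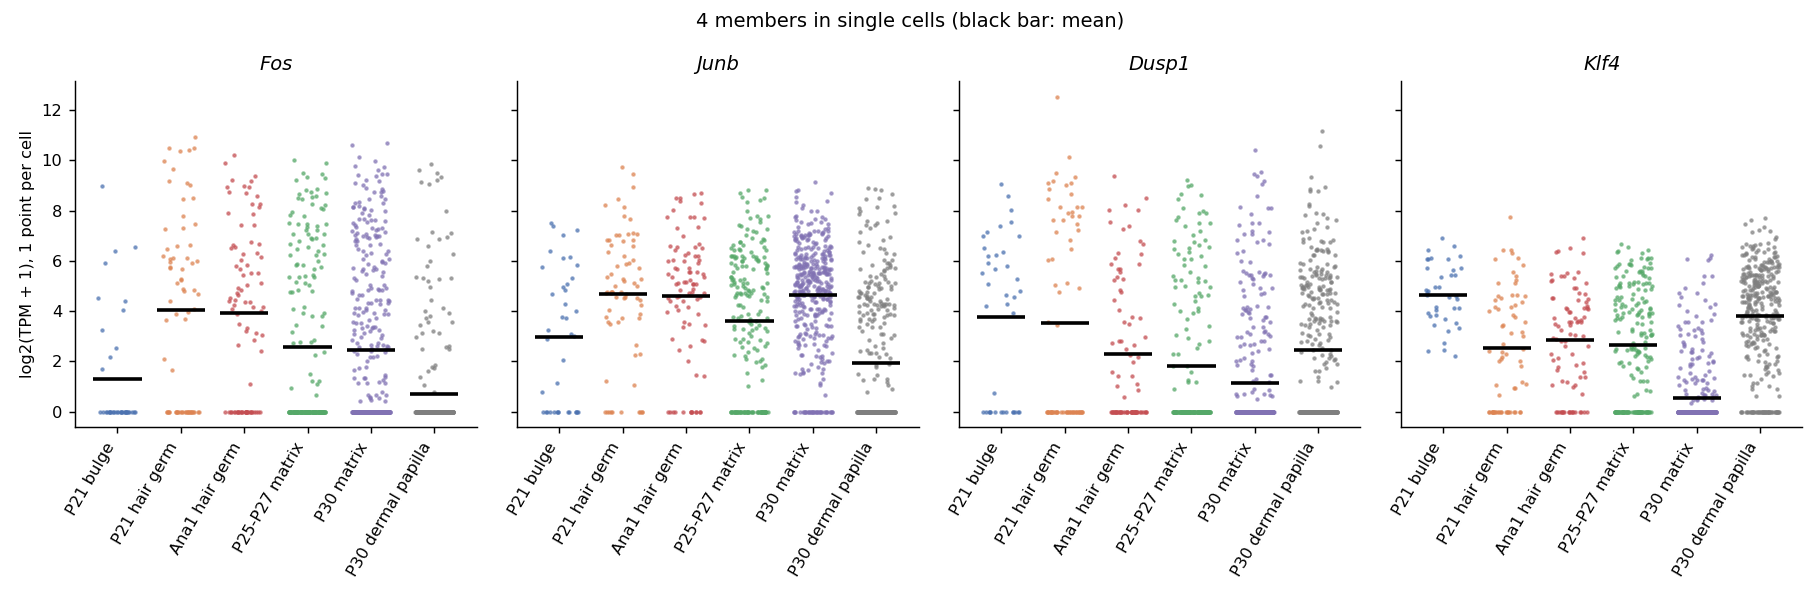
Fos, Junb, Dusp1 and Klf4 in all 1119 cells, on a log2(TPM + 1) scale with 1 point per cell and a bar for the mean. Fos and Dusp1 split into cells at 0 and cells spread widely above it, while all 39 bulge cells stand above 0 for Klf4.

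Between the bulge and the germ of the resting follicle at P21, 3 members differed by 1 or more in mean log2(TPM + 1), the size used here to call a difference. Klf4 was higher in the bulge by 2.12 (33.9 against 16.9 TPM). Fos was lower there by 2.76 (mean log2 1.29 against 4.06) and Junb by 1.69 (30.9 against 82.8 TPM). Fos passed the limit of 30% of cells through the germ alone (61.97% of germ cells, against 28.2% of bulge cells). Of the 8848 genes that passed 30% of cells in either group, 4.34% were called higher and 8.08% lower, with a median of -0.21. Ier2 was just short of the call at -0.98 (44.3 against 83.3 TPM). Jun (0.41), Dusp1 (0.27), Zfp36 (-0.11), Atf3 (-0.16), Egr1 (-0.35) and Fosb (-0.60) lay closer to 0. Each side is 1 plate, so plate and cell type cannot be told apart, and spike-ins took 14.4% of TPM in the bulge and 10.7% in the germ.

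Other early genes went both ways in the same comparison. Of the 49 on the list 33 could be compared, 6 higher and 6 lower in the bulge, with a median of 0.18. Ctgf, a matrix-associated growth regulator, was higher by 2.47, while Dusp6, a phosphatase that acts on ERK, was lower by 4.00 (7.92 against 86.8 TPM), with Zfp36l2 at -2.29 and Rhob at -1.76. The metallothioneins Mt2 and Mt1, which bind zinc and copper, were lower by 2.36 and 1.62. None of the 12 upstream kinases and factors compared (Srf, Creb1 and others) was called. Of 4 epidermal differentiation genes compared, Dmkn, Sbsn and Calml3 were higher in the bulge by 6.29, 4.33 and 3.14, in the direction of Klf4, and Krt10 stood at -0.73.

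From the P21 germ to the P23 to P24 germ, 2 members were called lower and none higher. Ier2 was lower by 1.38 (40.01 against 83.3 TPM) and Dusp1 by 1.09 (39.4 against 210 TPM, or 128.7 TPM without the highest P21 germ cell). Dusp1 was nevertheless seen in a like share of cells at both ages, 50.7% and 46.5%, and the median of the cells that held it was 36.9 against 216.7 TPM. The calls over 9541 genes were 8.55% higher and 6.84% lower, and 16.7% and 7.99% after TPM was rescaled without spike-in, ribosomal and mitochondrial rows, which left Ier2 (-1.41) as the single member called, with Dusp1 at -0.93. Fos (0.09), Fosb (0.18), Jun (-0.12) and Junb (-0.12) had close means at both ages. Among the other early genes 5 of 34 were lower, led by Myc (-1.56), Zfp36l1 (-1.52), Rhob (-1.39) and Sgk1 (-1.25), and none higher. The inducible heat shock genes Hspa1a (-1.88), Hspb1 (-1.82) and Hspa1b (-1.58) were lower as well, and Hspe1, a mitochondrial chaperone, was higher by 1.53. Each age was again 1 plate.

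Matrix cells at P25 to P27 stood below the P23 to P24 germ for 9 of the 10 members. Fos was called lower by 1.57 (73.02 against 112.7 TPM), Fosb by 1.12 (7.20 against 14.6) and Atf3 by 1.02 (13.2 against 24.5), and none was higher. This direction was common: 6861 of the 9206 genes compared stood below 0 as well. Of these 9206 genes 11.4% were called lower and 0.945% higher, and the median gene stood at -0.30 against -0.67 for the members. Set one at a time against the same germ plate, the 3 matrix plates gave differences for Fos of between -2.38 and -1.11, for Jun of between -1.22 and -0.0028 and for Egr1 of between -1.40 and -0.12. Without plate 914mat the difference of Fosb was -0.90, and without plate 915mat that of Atf3 was -0.89, so each then fell short of the call. Without 915mat Junb (-1.29, against -0.94 with it) and Egr1 (-1.11, against -0.73) were called as well. Of 35 other early genes 4 were lower and 1 higher, with Dusp6 (-2.24), Cyr61 (-1.35) and Socs3 (-1.29) lower and Cebpb (1.28) higher. Cdkn1a, a cell cycle inhibitor and p53 target, was higher by 1.38 (59.4 against 12.5 TPM).

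Against the 16 germ cells of their own age, matrix cells were called lower for Junb, by 1.22 (48.1 against 94.5 TPM), and for Zfp36, by 1.08 (23.4 against 77.6 TPM), of 9 members that could be compared. Over 8424 genes 5.24% were called higher and 8.07% lower, which became 12.9% and 12.5% after rescaling. Atf3 was seen in 2 of the 16 germ cells (12.5%) and was under the limit for comparison. Without plate 920mat neither call remained (-0.997 for Junb and -0.88 for Zfp36). Fos differed by -0.30 here and by -1.57 against the earlier germ. These 2 comparisons share the matrix cells, and the difference between them was not tested.

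Plates of one group also differed in the members, by up to 1.78 on the log2 scale. Among the P25 to P27 matrix plates, mean log2 of Egr1 was 2.72 on 914mat, 4.00 on 915mat and 3.24 on 920mat, a range of 1.28. Fos stood at 1.76, 3.04 and 2.72 on the same plates, Jun at 3.17, 4.38 and 3.77, and Fosb at 0.67, 1.70 and 1.26. Junb was 3.37, 4.19 and 3.19. Plate 915mat was thus the highest for each of these 5 genes, whose ranges of 1.00 to 1.28 all reached 1. In all, 5 of the 9 members seen in at least 30% of these cells had such a range, against 9.38% of 7717 genes, and the median range was 1.00 against 0.50. Without 915mat the count was 0, and without 914mat 1. Plate 915mat was the highest for 7 of the 9 members and for 30.2% of all genes. Klf4 (0.46) and Dusp1 (0.44) varied little between the plates. Spike-ins took 9.03% of TPM on 915mat against 6.03% and 4.82%, and the median number of genes seen was 5312 against 5160 and 6093. Their part in the spread was not tested. All genes, here and in the P30 groups, were not matched to the members in level or in variation between cells. The members' standard deviations between these matrix cells ran from 1.89 (Fosb) to 3.37 (Fos) on the log2 scale. How far this variation alone widens the ranges of plate means was not tested.

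In the P30 matrix 4 of the 6 members seen in enough cells were highest on plate P2-1. Junb had plate means of 4.21, 4.45, 4.36 and 4.65 on P1-3 to P1-6 and 5.44 on P2-1, Ier2 3.80, 3.45, 3.54 and 4.08 with 4.6 on P2-1, and Zfp36 1.76, 1.88, 1.72 and 2.74 with 2.84. These were the 3 of 6 members whose range reached 1, against 7.77% of 9355 genes. P2-1 was also the highest plate for 50.8% of all genes, had the most genes seen (8037) and carried the 4 melanocyte markers at a sum of 626 TPM, against 86.1 to 271.01 TPM on the other plates. Smooth muscle and pericyte markers were lowest there, at 78.2 TPM against 185.7 to 381.1. Whether these cells account for the difference was not tested. Without P2-1, 1 member and 0.741% of genes reached a range of 1. Jun varied by 0.41.

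Papilla plates were led by DP3, which was the highest for all 5 members that could be compared and for 64.6% of 7246 genes. Dusp1 had the largest spread: mean log2 1.81 on DP2, 3.53 on DP3, 1.75 on DP5 and 2.74 on DP6, a range of 1.78 that exceeded that of 99.8% of genes. Its mean TPM was 17.9, 91.2, 16.5 and 33.4 and its share of cells 37.9%, 67.8%, 41.9% and 55.8%. Zfp36 ranged by 1.01 and the other 3 by less than 1, against 13.8% of genes at 1 or more. Cells with fewer than 2000 genes numbered 14 on DP2, 2 on DP3, 12 on DP5 and 5 on DP6, so DP3 had the fewest. Without DP3 no member had a range of 1, and 3.82% of genes did.

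**Figure D3:**
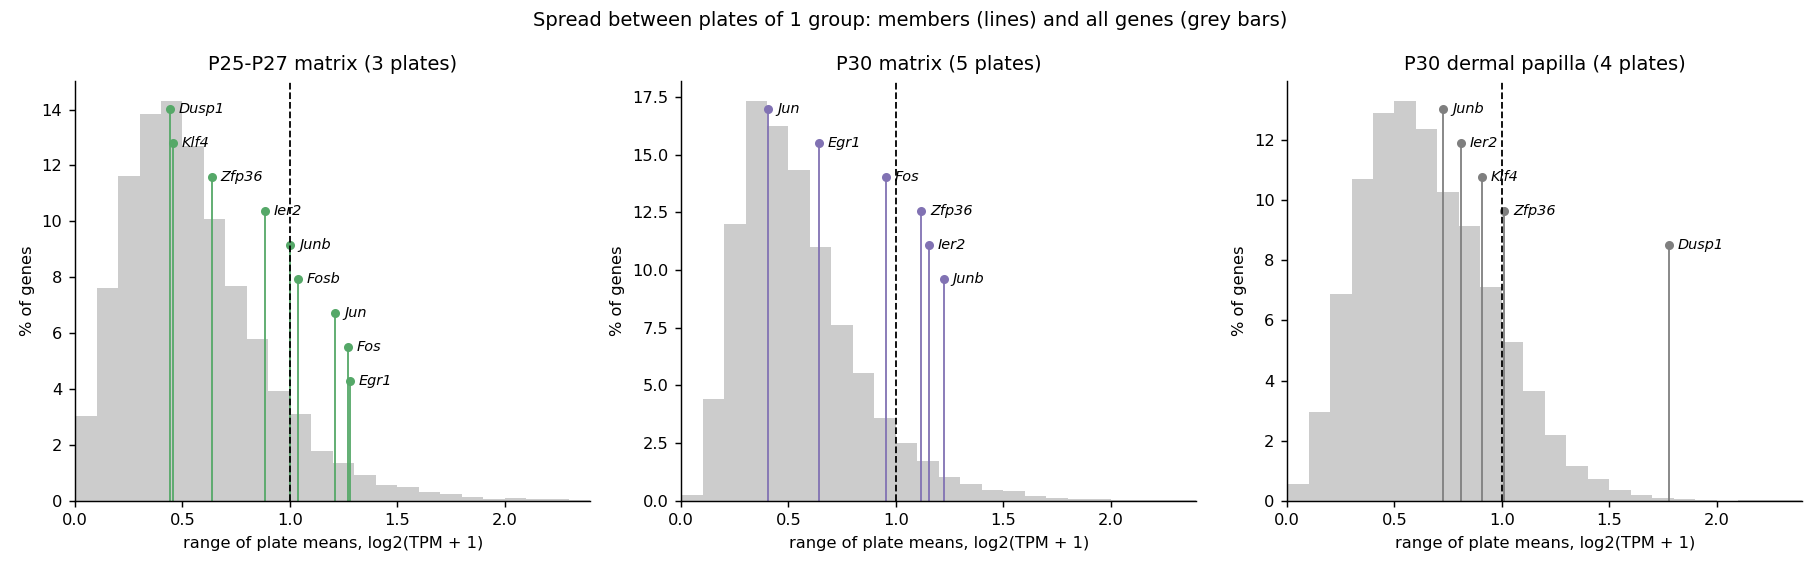
Range of plate means of log2(TPM + 1) in 3 groups of several plates: grey bars give the percent of all genes seen in at least 30% of the cells per bin, and coloured lines mark the members that passed the same limit, their heights set apart only for legibility. The dashed line stands at 1, and 5, 3 and 2 members lie at or beyond it; a few genes lie beyond the axis.

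Within plates the members varied together from cell to cell. For each cell type, Spearman correlations between cells were taken within each plate and averaged over plates by their number of cells. Cells of 1 plate share preparation and differ in depth, which TPM does not record, so the same was computed for all genes. The median over pairs of members was 0.25 in bulge (36 pairs, 39 cells), 0.50 in P21 germ (45 pairs, 71 cells), 0.43 in Ana1 germ (45 pairs, 87 cells), 0.46 in P25 to P27 matrix (36 pairs), 0.44 in P30 matrix (15 pairs) and 0.32 in papilla (10 pairs), the last 3 over all their cells. Over all pairs of genes the medians were 0.03, 0.06, 0.09, 0.05, 0.09 and 0.13. Every pair of members that both passed 30% of cells was above 0 in every type, and the pairs and medians given here are of these. Among the other pairs 1 was below 0, Atf3 and Klf4 in P25 to P27 matrix (-0.015).

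Among pairs that passed 30% of cells, the closest in germ and matrix joined the AP-1 genes and Egr1. In P21 germ cells Fos and Jun had a correlation of 0.76, Fos and Egr1 0.70, and Jun and Egr1 0.67. In P25 to P27 matrix cells Fos and Fosb, whose proteins are close relatives, led with 0.63, and in P30 matrix cells Fos and Egr1 with 0.60, where the rarer Atf3 and Fosb had 0.61 and 0.60 with Fos. Among P25 to P27 matrix cells, 89.2% of those with Fos also held Egr1, and 47.4% of those without Fos did. In P30 matrix 2 cells held Fosb without Fos (0.943% of the cells without Fos), and 55 held both (31.98% of those with Fos). In bulge Junb and Ier2 were the closest of these pairs, at 0.48, while Fos, seen in fewer cells, had 0.51 with Egr1 and 0.49 with Fosb. In papilla Junb and Zfp36 were the closest of these pairs, at 0.44.

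**Figure D4:**
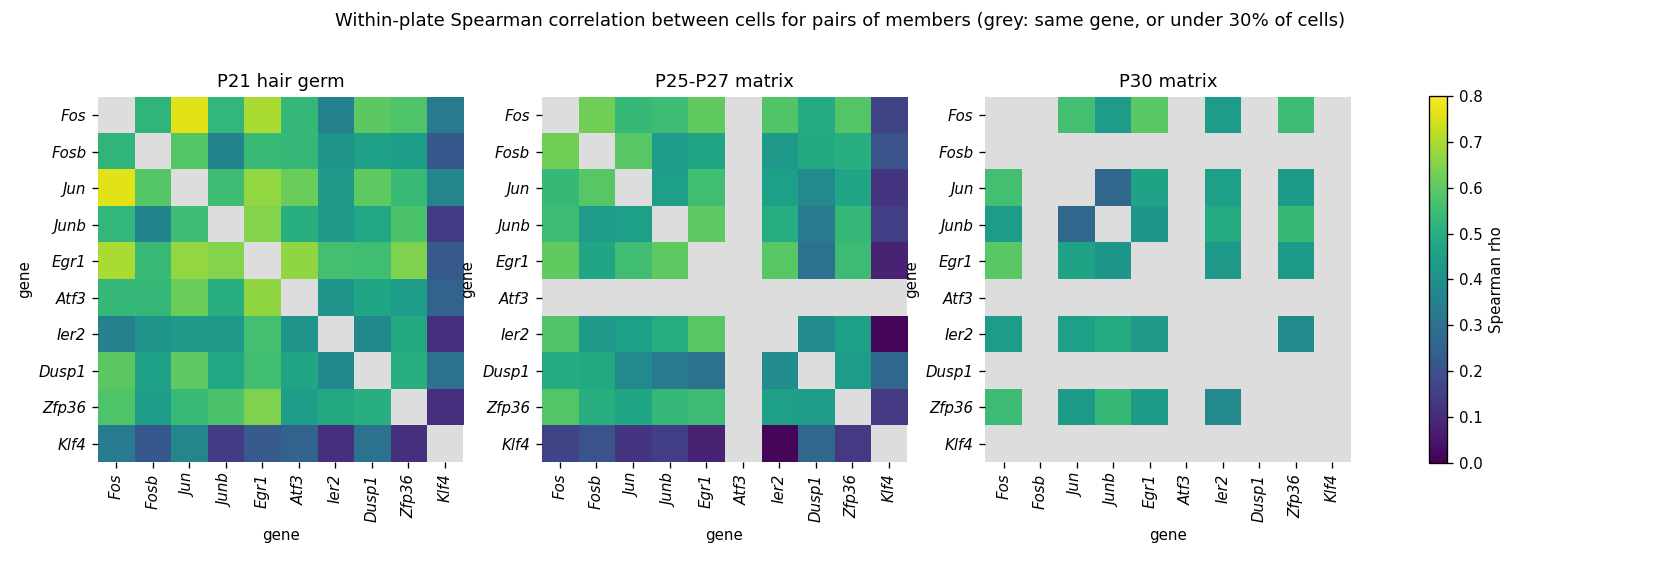
Within-plate Spearman correlation between cells for each pair of members in 3 cell types (colour scale from 0 to 0.8; both axes list the genes; grey for a gene with itself or seen in under 30% of cells). Klf4 forms the dark row and column in P21 germ and P25 to P27 matrix, with values down to 0.01 (Ier2 and Klf4 in P25 to P27 matrix), while Fos, Jun and Egr1 form the brightest block in P21 germ.

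Set against the mean of the other members, a gene was called alike at a correlation of 0.2 or more. This held for 9 of 9 members in bulge, against 15.6% of all genes, for 10 of 10 in P21 germ (10.9%), 10 of 10 in Ana1 germ (13.6%), 8 of 9 in P25 to P27 matrix (5.68%), 6 of 6 in P30 matrix (3.12%) and 5 of 5 in papilla, where 39.8% of all genes passed too. Fos in bulge, Atf3 in P25 to P27 matrix, Fosb, Atf3, Dusp1 and Klf4 in P30 matrix and the other 5 in papilla were seen in too few cells to be scored. They stayed in the members' mean that genes were set against. Jun reached 0.80 in P21 germ, the highest value of any member, and Fos 0.71 in both matrix types. Klf4 was the lowest of the members in the first 4 types and fell short of the call in P25 to P27 matrix (0.14), though all 9 members were called there with genes seen regressed out, and again without plate 915mat. It went instead with differentiation genes: its correlation with the mean of Dmkn, Sbsn, Calml3 and Krt10 was 0.45 in P25 to P27 matrix and 0.42 in Ana1 germ, where the other members had medians of 0.05 and 0.05. In P21 germ the values were 0.15 and 0.13, and in bulge 0.02 and 0.12 over 3 of these genes. Klf4 also followed measures of library quality. In P25 to P27 matrix its correlation was 0.37 with the share of ribosomal RNA. With genes seen it was -0.25 there, against 0.15 to 0.31 for the other members. In Ana1 germ it was 0.44 with the share of spike-ins. The part of these measures in the values of Klf4 was not tested.

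Of the genes ranked outside the list, the 5 that went most closely with the members were all other early genes. Predicted gene models, pseudogenes and unannotated rows were left out, and the ranking over types needed at least 4 types. Over the types in which each was measured, the highest means were those of Btg2, an antiproliferative factor (0.54), Nr4a1, an early nuclear receptor (0.52), and Jund (0.43). Cyr61 (0.43, measured in neither matrix type) and Klf6 (0.43) followed. Neat1, a nuclear noncoding RNA (0.37), Actg1, a cytoplasmic actin (0.34), Sik1 (0.32), Errfi1, an inhibitor of the EGF receptor (0.32), and Ppp1r15a, which restores translation after stress (0.30), came next. Of the first 50 genes among 7230 that could be ranked, 15 were from the list of 49 other early genes, of which 31 could be ranked. Heat shock genes gave 2 of the first 50, and the integrated stress, oxidative stress, p53, upstream and reference lists 1 each. Nr4a1 (0.67) and Btg2 (0.60) led in P30 matrix, followed by Per1 (0.50), and Jund (0.45), Nr4a1 (0.45) and Btg2 (0.43) in P25 to P27 matrix, followed by Cdkn1a (0.35). In bulge the first places went to genes of no list (Rpl36, 0.53; Igbp1, 0.53), and in papilla to Gpx1 (0.59), Emp1 (0.56) and Lmna (0.56), where most reference genes (5 of 8) passed 0.2 as well.

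The median correlation of other early genes with the members' mean was 0.17 in bulge, 0.19 in P21 germ, 0.24 in Ana1 germ, 0.17 in P25 to P27 matrix, 0.26 in P30 matrix and 0.33 in papilla. For heat shock genes the median was 0.14, 0.16, 0.12, 0.12 and 0.12 in the first 5 of these types, in the same order, and 0.28 in papilla. These values were close to those of the 8 reference genes in the same cells (0.15, 0.13, 0.05, 0.11, 0.10 and 0.37). Dnajb1, a cochaperone, was the highest of the 12 over the types, at 0.28. Upstream kinases and factors had medians between -0.03 and 0.18. Whether these lists differ was not tested.

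Single cells ranged from none to all of the 10 members. The median cell held 6 in bulge, 7 in P21 and Ana1 germ, 5 in both matrix types and 3 in papilla. Cells with 8 or more made up 30.8% of bulge, 36.6% of P21 germ, 40.4% of Ana1 germ, 25.6% of P25 to P27 matrix, 17.97% of P30 matrix and 4.15% of papilla cells. By plate this share was 23.6%, 30.3% and 22.1% on the 3 P25 to P27 matrix plates, 13.2%, 10.3%, 21.3%, 20.3% and 24.7% on the 5 P30 matrix plates and 3.45%, 8.05%, 3.49% and 1.30% on the 4 papilla plates. The plates of each group had overlapping exact binomial intervals. A small share of cells carried most transcripts of the rarer members: in P30 matrix, the highest 10% of cells held 97.4% of Fosb TPM, 93.6% of Dusp1 and 91.4% of Atf3, but 40.8% of Junb. One P30 matrix cell on P2-1 was the highest for 5 members at once (Fos 1636, Fosb 314.6, Jun 568.1, Atf3 502 and Dusp1 1360 TPM).

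**Figure D5:**
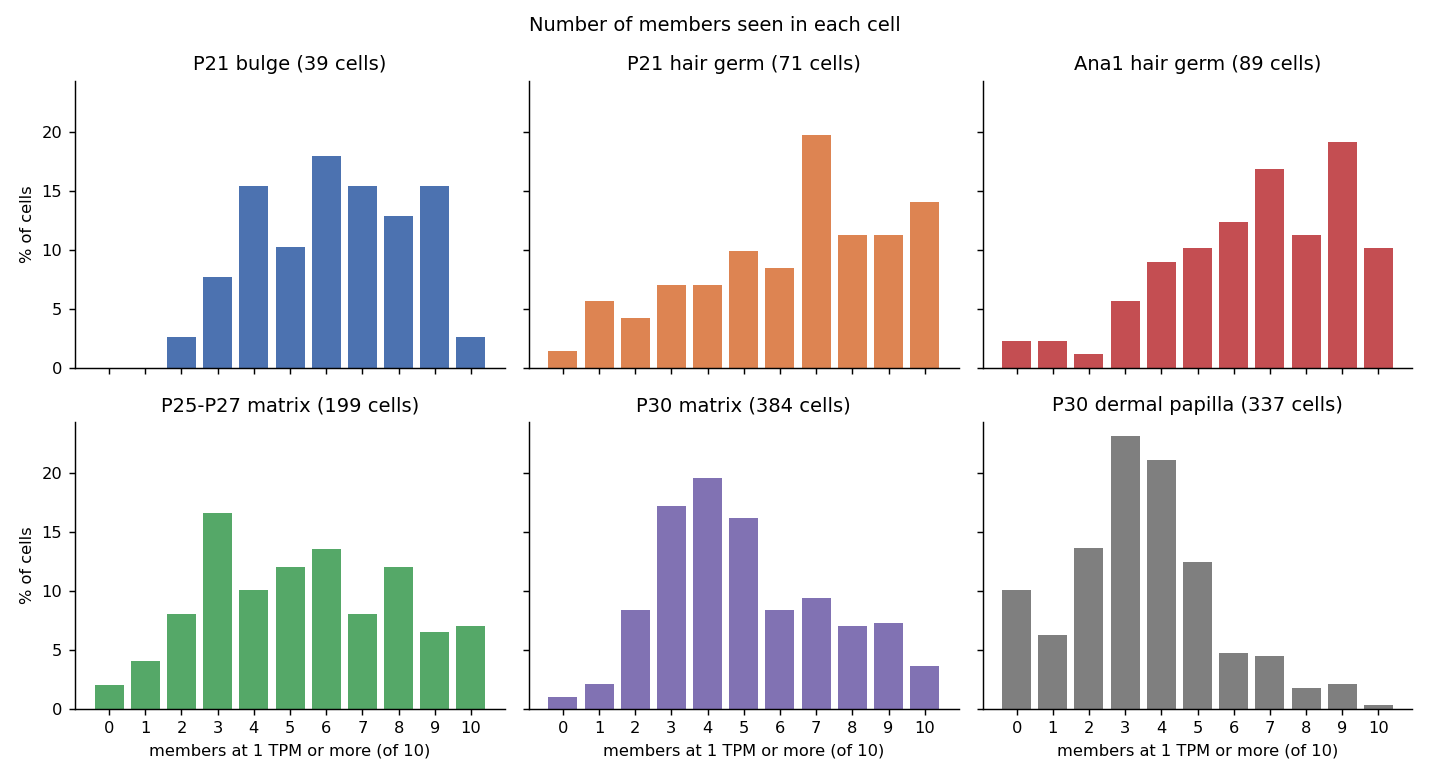
Percent of cells (y axis) by the number of the 10 members seen at 1 TPM or more (x axis) in each cell type. The germ types have their bulk at 7 or more, the P30 matrix at 3 to 5, and the papilla at 2 to 5 with 34 cells at 0.

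Measures of library quality were set beside the members. Within plates, the correlation of the members' mean with the number of genes seen was above 0 on 15 of 16 plates, between -0.02 and 0.52. With the share of ribosomal RNA it was between -0.38 and 0.09, with that of mitochondrial rows between -0.33 and 0.34, and with that of spike-ins between -0.38 and 0.31. With the number of genes seen regressed out, the median correlation of member pairs was 0.25, 0.50, 0.44, 0.42, 0.45 and 0.29 in the 6 types. The well a cell lay in had no common relation: with reading order across the plate the correlation was above 0 on 8 of 16 plates, between -0.30 and 0.16. The bulge plate had the strongest trends, at 0.44 with the column and -0.42 with the row. Times of sorting and dissociation are not given in the sources used here, so the part of cell isolation in these levels was not tested.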

How the data were processed

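The authors deposited TPM in 3 tables (P21 to P27, P30 hair bulb and P30 dermal papilla) with the same 46609 rows, 92 of them spike-ins. The submitters' processing notes name Bowtie2 2.2.9, RSEM 1.2.30 and the build mm10. The deposited papilla table separates its fields by other characters than tabs and was read as TPM as well. All columns matched a sample and summed to 1000000 within rounding. TPM is scaled within each cell and records no read depth. P30 cells differ from the others in strain and sort. Levels of P30 cells are therefore ranked beside the others, but no difference with them is called.

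The values were computed with Python 3.11.15, numpy 2.4.6, pandas 2.3.3 and scipy 1.17.1. Differences are of mean log2(TPM + 1), over genes seen (1 TPM or more) in 30% of a group's cells or more, without 92 spike-in, 37 mitochondrial and 358 ribosomal RNA rows, and are called at 1. A log2(TPM + 1) scale understates the change of low genes. Plate values use plates of 10 or more cells. Plate ranges are called at 1 and correlations with the members' mean at 0.2. The statistics were also run on the cells' own values with planted differences, plate offsets and a planted shared factor. The outcome of those runs is not given here.

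All 10 members are named. Of other lists, the rule names up to 4 genes with the largest difference, and of alike genes the first 10 by mean and 5 per type; some are not printed. Single cells that held the highest values, the counts of cells with 2 members and the TGACG motif were chosen after the values were seen. The members and lists were chosen with earlier results of these data known. The alternatives tried were a limit of 10 TPM for seen, other pseudocounts, rescaling, no filter, cells with at least 2000 genes, other correlations and leaving out each plate.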

Additional observations from a re-analysis of the deposited data

How the results depend on the processing

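No paired analysis was possible because the labels name no animals and the replicate numbers only name cells. A pseudocount of 10 left 0 members higher and 1 lower in bulge against germ and 0 lower in each of the other 3 comparisons, and 0 members with a plate range of 1 in any of the 3 groups; it shrinks every difference, and all genes were called less often too. A pseudocount of 0.1 gave 1 member lower in P23 to P24 against P21 germ and 6 lower in matrix against P23 to P24 germ. Rescaled TPM gave 1 lower in P23 to P24 against P21 germ, where it moved the median gene from -0.06 to 0.11. The cause was not tested beyond this. Leaving out plates gave 0 to 2 members lower in matrix against P25 to P27 germ, 0 to 4 members with a plate range of 1 in P25 to P27 matrix (0 without 915mat, 1 without 914mat), 1 to 3 in P30 matrix (1 without P2-1) and 0 to 2 in papilla (0 without DP3, 1 without DP5). The median correlation of member pairs in Ana1 germ was 0.41 to 0.56 (0.56 on the 14 cells left without 902hg). No called difference changed sign in any setting run. The other counts of members stayed within 1.5 times. Shares over all genes moved more: rescaling took genes with a plate range of 1 to 26.8%, 21.2% and 39% in the 3 groups, genes alike in papilla were 14.5% with genes seen regressed out, and those in P25 to P27 matrix 15.4% without 915mat. Depth is unknown, so a TPM of 0 does not show absence, and 14 to 16 germ cells at P25 to P27 limit that comparison.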
